A study of Mus musculus with 12 samples.

Results

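The 9 genes described here encode the core of transforming growth factor beta (TGF-beta) signalling in mouse embryonic fibroblasts. They are the ligands Tgfb1, Tgfb2 and Tgfb3, the receptors Tgfbr1, Tgfbr2 and Tgfbr3, the signal carrier Smad3, the inhibitor Smad7 and Inhba, which encodes an activin subunit. They were taken by symbol, with earlier results of these data already known, so counts among them are descriptions. All 9 were found among the 37991 gene identifiers of the count tables, and all 9 were among the 15098 genes that passed a filter on low counts. RNA was counted in 12 libraries, in 4 groups of 3, from primary fibroblasts of male C57BL/6N embryos at E15.5 (embryonic day), harvested after 4 passages at 80% confluency. The groups were wild type (WT), Ing1-/- (Ing1 KO), Gadd45a-/- and the double knockout Gadd45a-/-;Ing1-/- (DKO). Per the labels, Ing1-deficient and Gadd45a-deficient mice were crossed to obtain them, and no Cre driver or transgene is named. Whether replicates are separate embryos or cultures of 1 embryo is left unsaid in the labels. Each p-value thus sets a group difference against the spread between libraries, which may be technical.

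TGF-beta ligands are secreted in a latent form, held by a propeptide and by matrix proteins until they are released. The active ligand is bound by the type II receptor Tgfbr2, which recruits and activates the type I receptor Tgfbr1, while the co-receptor Tgfbr3 (betaglycan) presents ligand, above all Tgfb2. Tgfbr1 activates Smad2 and Smad3, which enter the nucleus with Smad4 and switch on genes for matrix, contractile filaments and feedback inhibitors such as Smad7. Fibroblasts both make and answer these ligands, and the pathway is known for driving their change into contractile, matrix-producing myofibroblasts.

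The promoters of 4 genes that were called in Ing1 KO are shown, those of the ligands Tgfb1 and Tgfb2, which were higher, and of the signalling receptors Tgfbr1 and Tgfbr2, which were lower. The RefSeq table of promoters, on GRCm38.p6, matched 6 of the 9 genes, and Tgfb3, Tgfbr3 and Smad7 are named only. In that table the 250 bases before the listed start are given 5′ to 3′ on the gene's own strand. This build is later than the mm9 of the counts. Capitals mark each match to a motif on either strand, and no match overlaps another. The motif searched as the GC box was GGGCGG, and the Smad-binding core was searched as CAGAC. The site of the factor AP-1 was searched as TGANTCA, the box of TATA-binding protein as TATAAA, and the E-box as CACGTG. Tgfb1 (chr7:25686752-25687001, plus strand) and Tgfb2 (chr1:186705990-186706239, minus strand) are ligands. Tgfbr1 (chr4:47352972-47353221, plus strand, with the more upstream of 2 listed starts used) and Tgfbr2 (chr9:116175364-116175613, minus strand) are receptors.
Tgfb1: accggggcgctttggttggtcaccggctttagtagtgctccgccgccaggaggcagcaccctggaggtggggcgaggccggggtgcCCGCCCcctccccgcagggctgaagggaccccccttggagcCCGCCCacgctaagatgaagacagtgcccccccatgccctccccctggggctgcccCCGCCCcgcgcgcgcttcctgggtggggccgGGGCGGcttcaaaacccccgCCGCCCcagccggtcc
Tgfb2: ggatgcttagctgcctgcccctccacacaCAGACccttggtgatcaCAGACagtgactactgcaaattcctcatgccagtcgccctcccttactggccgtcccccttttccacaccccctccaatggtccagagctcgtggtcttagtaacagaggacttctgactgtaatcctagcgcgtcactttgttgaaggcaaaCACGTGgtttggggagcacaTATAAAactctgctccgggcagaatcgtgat
Tgfbr1: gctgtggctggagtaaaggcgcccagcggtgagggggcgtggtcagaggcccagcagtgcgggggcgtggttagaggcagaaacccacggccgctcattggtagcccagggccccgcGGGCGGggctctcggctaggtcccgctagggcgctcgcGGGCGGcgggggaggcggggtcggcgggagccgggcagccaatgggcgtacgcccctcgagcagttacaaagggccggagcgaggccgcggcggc
Tgfbr2: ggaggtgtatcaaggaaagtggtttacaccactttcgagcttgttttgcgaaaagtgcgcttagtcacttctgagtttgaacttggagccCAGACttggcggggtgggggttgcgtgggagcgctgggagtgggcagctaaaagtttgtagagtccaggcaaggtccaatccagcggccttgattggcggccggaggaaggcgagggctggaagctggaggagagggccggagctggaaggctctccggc

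The Tgfb1 window held 5 GC boxes, and 75.2% of its bases were G or C. The Tgfbr1 window held 2 GC boxes at 74.8% G or C. The Tgfb2 window was of another kind, with 2 Smad-binding cores, 1 TATA box and 1 E-box at 53.6% G or C. The Tgfbr2 window held 1 Smad-binding core at 58.4% G or C. Among 32851 promoter windows of the same length, a GC box was found in 32.7%, a Smad-binding core in 42.2%, an AP-1 site in 6.75%, a TATA box in 12.4% and an E-box in 6.02%, and the median G or C share was 52.4%. No motif was shared by the ligand pair or by the receptor pair. Of the other windows in the table, that of Smad3 held 2 GC boxes and that of Inhba 1 TATA box. A match describes the letters in the window and was not tested for binding.

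Each library held between 31493168 and 42852059 gene counts, and the 9 genes had between 685 and 20469 counts in a library. Ing1 was at 52.3 ± 2.02 CPM in the WT and at 1.22 ± 0.204 CPM in Ing1 KO (SD, n = 3 each), where CPM, the usual scaled read count, also allows for library composition. Gadd45a went against its label, with 21.1 ± 0.197 CPM in the WT, 100 ± 21.8 CPM in the group labelled Gadd45a KO and 126 ± 6.29 CPM in the group labelled DKO (SD, n = 3 each). The deleted part of Gadd45a is not described in the labels, a count outside that part checks nothing, and the gene overlaps E230016M11Rik on the other strand. Every direction that involves these groups therefore rests on their labels. All 10 fibroblast markers were above 1 CPM in all 12 libraries and summed to between 48256 and 63938 CPM. Endothelial markers summed to 12.1 CPM or less and epithelial markers to 9.12 CPM or less. Skeletal muscle markers summed to between 23.7 and 74.2 CPM, and Des was the most abundant of them. Des was at 34.4 ± 3.79 CPM in the WT and 58.7 ± 19.8 in Ing1 KO. It was at 28.8 ± 8.23 CPM in the labelled Gadd45a KO and 49.1 ± 17.2 in the labelled DKO (SD, n = 3 each). Myod1 and Myf5 were at 0.0817 CPM or less in every library. Markers of Schwann cells and neurons summed to between 87.4 and 176 CPM. The 17 macrophage markers summed to between 143 and 635 CPM in the first 3 groups and to between 2265 and 2821 CPM in the libraries labelled DKO.

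Per kilobase of exon, Tgfb3 had the highest level of the 9 genes, at 127 CPM per kb over the 12 libraries. Next came Tgfbr2 at 46, Tgfbr3 at 22.7, Inhba at 20.1, Tgfbr1 at 16.3 and Smad3 at 14.1 CPM per kb. Tgfb1 was at 9.08, Tgfb2 at 5.73 and Smad7, the lowest, at 5.07 CPM per kb. By the same measure Tgfb3 made up 90.6% ± 0.379 of the summed ligand RNA in the WT (SD, n = 3), against 5.57% ± 0.345 for Tgfb1 and 3.82% ± 0.0623 for Tgfb2. The changes in Tgfb1 and Tgfb2 given next thus concerned the less abundant ligands. Exon lengths came from an annotation of a later genome build than the counts. They join all annotated exons of a gene, used or not in these cells, so levels per kilobase, their order and the shares depend on them.

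**Figure D1:**
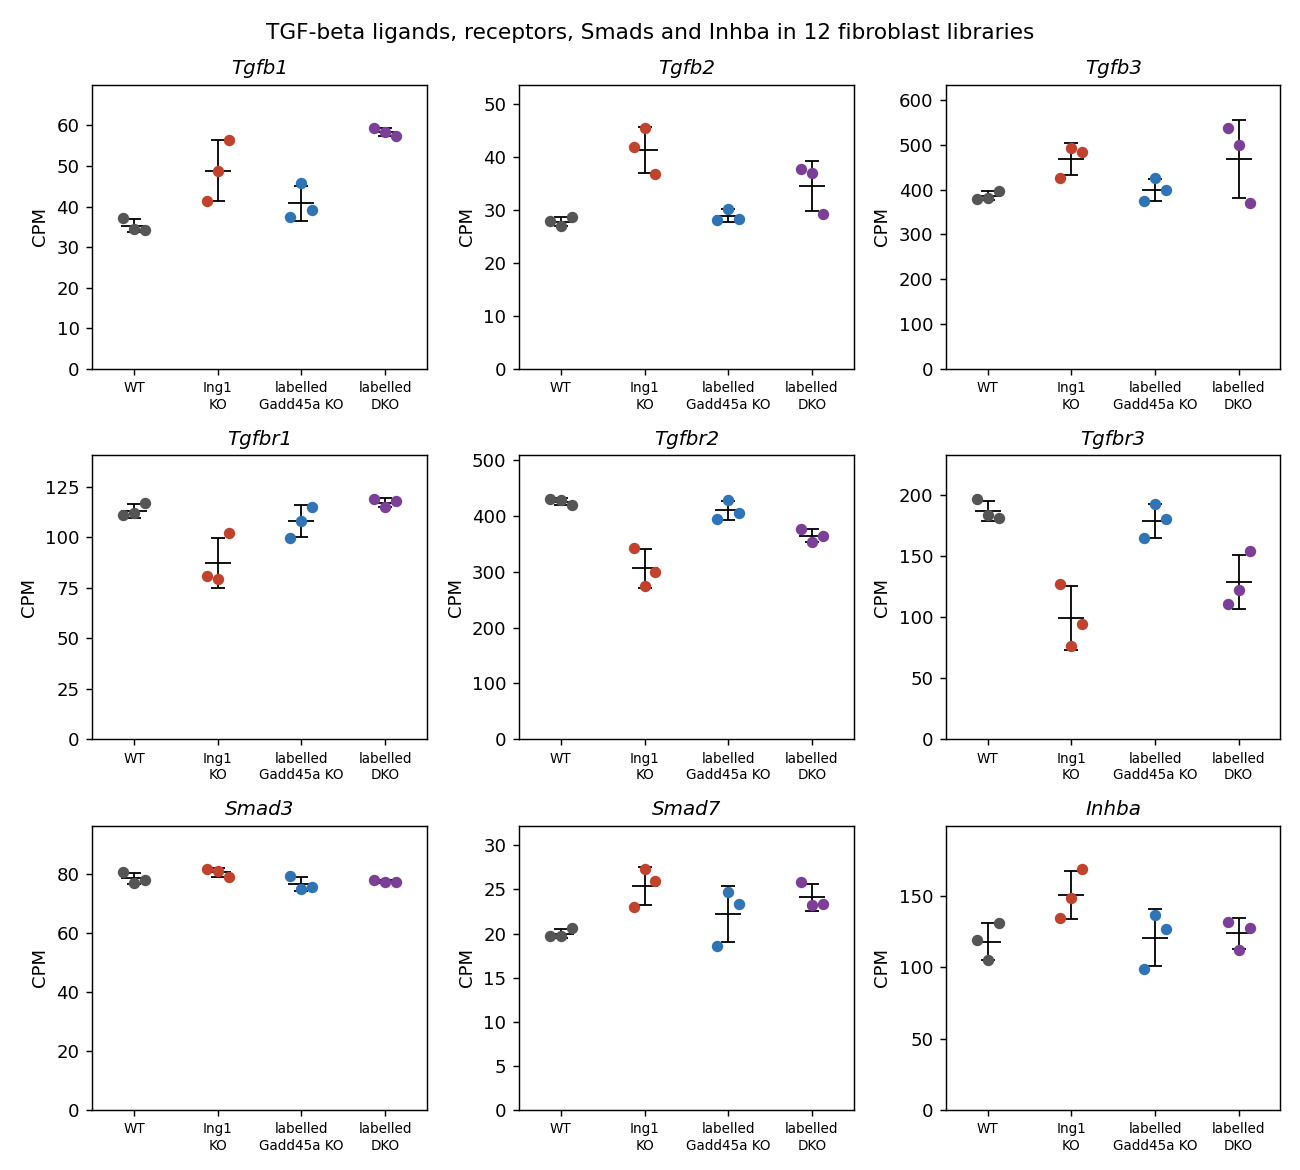
CPM of the 9 genes in each of 12 libraries (points), with the group mean (wide bar) and SD (error bar) of 3 libraries, by group on the x axis. All 3 Ing1 KO libraries lie above the WT for Tgfb1 and Tgfb2 and below it for Tgfbr1, Tgfbr2 and Tgfbr3, while Smad3 is nearly level.

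The first comparison asked what changed where Ing1, a reader of histone marks, was missing. In Ing1 KO, 2 ligands and the inhibitor Smad7 were higher and all 3 receptors were lower than in the WT. Of the 9 genes, 6 were called, 3 higher and 3 lower, where a call is an edgeR adjusted p under 0.05. Of all genes tested 23.5% were called in this comparison, 12.1% higher and 11.4% lower. The libraries of both groups did not overlap for 8 of the 9 genes, against 37.2% of all genes tested.

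Tgfb1, the ligand best known from platelets and immune cells, was measured at 37.2, 34.4 and 34.3 CPM in WT replicates 1 to 3. In Ing1 KO it was at 41.3, 48.7 and 56.3 CPM, each above the highest WT library. The log2 fold change was 0.47 ± 0.10 (SE, edgeR adjusted p = 0.00666), a 1.38-fold difference. Tgfb2, the ligand that depends most on betaglycan for binding, was at 27.9, 27 and 28.7 CPM in the WT and at 41.9, 45.5 and 36.9 CPM in Ing1 KO. The groups lay well apart, and the log2 fold change was 0.57 ± 0.09 (SE, edgeR adjusted p = 0.00133), a 1.49-fold difference. Tgfb3 was at 379, 381 and 397 CPM in the WT and at 427, 493 and 483 CPM in Ing1 KO. Its libraries did not overlap either, but its log2 fold change of 0.28 ± 0.11 was not called by edgeR (adjusted p = 0.104), and was called by DESeq2 (adjusted p = 0.0388). Its adjusted p ranged from 0.0185 to 0.274 over 11 alternatives.

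Tgfbr1, the type I receptor kinase, was at 111, 112 and 117 CPM in the WT and at 80.6, 79.2 and 102 CPM in Ing1 KO. Replicate 3 of Ing1 KO lay closest to the WT without reaching it, and the log2 fold change was -0.38 ± 0.08 (SE, edgeR adjusted p = 0.00649). Tgfbr2, the ligand-binding type II receptor, was at 431, 428 and 419 CPM in the WT and at 343, 274 and 300 CPM in Ing1 KO. The log2 fold change was -0.48 ± 0.07 (SE, edgeR adjusted p = 4.97e-04), a 1.39-fold lower level. Tgfbr3, the co-receptor, was at 197, 184 and 181 CPM in the WT and at 127, 76.5 and 94.1 CPM in Ing1 KO. It had the largest difference from the WT among the 9 genes, 1.89-fold lower, with a log2 value of -0.92 ± 0.18 (SE, edgeR adjusted p = 0.00609). Replicate 2 was the lowest Ing1 KO library for each of the 3 receptors. The calls of Tgfb1, Tgfb2 and the 3 receptors remained in each of 11 alternatives, which include leaving out each of the 6 libraries. Single fibroblast markers moved in the same comparison although their sum overlapped between the groups, with 2 of 10 called higher and 4 lower. Pdgfra, a growth factor receptor, ranged over 653 to 789 CPM in the WT and 320 to 459 CPM in Ing1 KO. Dcn, the proteoglycan decorin, ranged over 363 to 442 CPM and 108 to 170 CPM, and Vim, an intermediate filament gene, over 2376 to 2654 CPM and 3056 to 3328 CPM, in the same order. These 3 were chosen after their values were seen, and the part of a shift among fibroblasts in the ligand and receptor values was not tested. In bulk RNA, fewer cells of a type and less RNA per cell cannot be told apart.

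Because the receptors did not fall alike, their share of the summed receptor RNA per kilobase moved too. Tgfbr3 made up 29.2% ± 0.837 of it in the WT and 22.8% ± 3.18 in Ing1 KO (SD, n = 3 each). Tgfbr2 made up 53.1% ± 0.461 and 56.8% ± 1.7, and Tgfbr1 17.7% ± 0.77 and 20.4% ± 3.37. These shares are given as a description, with no test.

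Smad7, which blocks the type I receptor and is itself switched on by the pathway, was at 19.7, 19.7 and 20.6 CPM in the WT and at 23, 27.3 and 26 CPM in Ing1 KO. The log2 fold change was 0.35 ± 0.10 (SE, edgeR adjusted p = 0.0191). The call was lost without WT replicate 1 (adjusted p = 0.0523), WT replicate 2 (0.0686) or Ing1 KO replicate 2 (0.0886), and the adjusted p over the alternatives ran from 0.00701 to 0.0886. Smad3, which carries the signal to the nucleus, stayed within 77.1 to 80.8 CPM in the WT and within 78.9 to 81.7 CPM in Ing1 KO. Its log2 fold change was 0.03, with a 95% interval from -0.05 to 0.12 (edgeR adjusted p = 0.554). Inhba, whose product forms activin A and signals through receptors of its own to the same Smads, was at 119, 105 and 131 CPM in the WT and at 135, 149 and 169 CPM in Ing1 KO. Its log2 fold change of 0.35 ± 0.13 was not called by edgeR (adjusted p = 0.0801) and was called by DESeq2 (adjusted p = 0.0187).

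**Figure D2:**
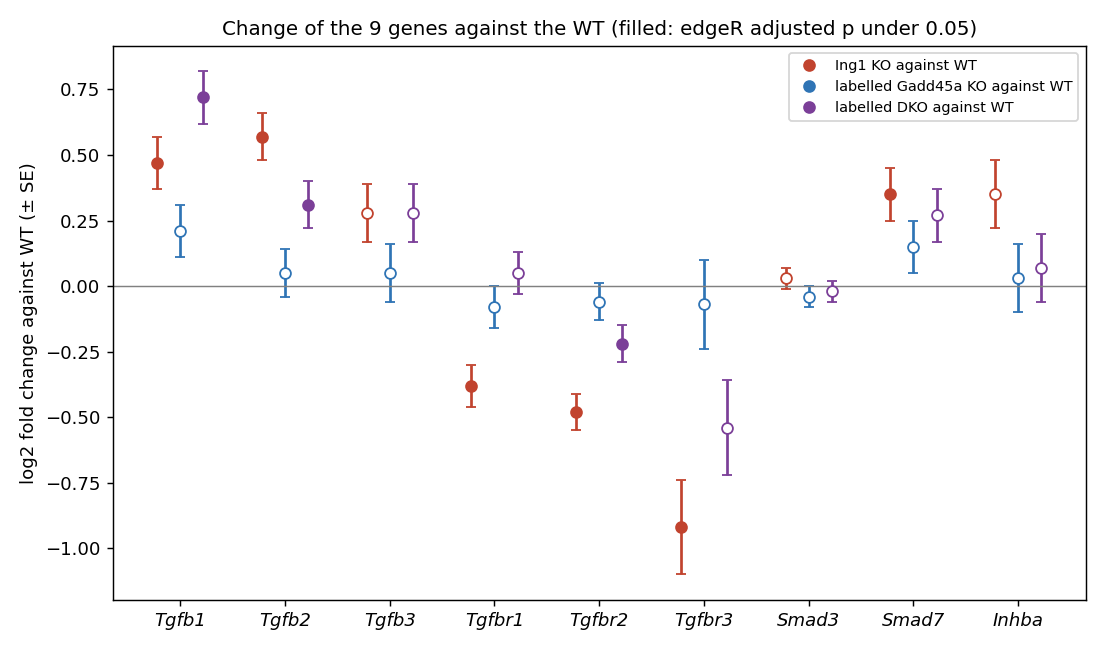
Log2 fold change against the WT for the 9 genes (y axis, with SE bars) in Ing1 KO, the libraries labelled Gadd45a KO and those labelled DKO. Filled points have an edgeR adjusted p under 0.05, as Tgfbr3 does in Ing1 KO at -0.92 and Tgfb1 in the labelled DKO at 0.72, and all 9 points of the labelled Gadd45a KO are open.

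The libraries labelled Gadd45a KO were compared with the WT next, and none of the 9 genes was called. Of all genes tested 0.00662% were called, which is 1 gene, Gadd45a itself, while 1331 genes had an unadjusted edgeR p under 0.05 and none of them was among the 9. DESeq2 called 31 genes and also none of the 9. Tgfb1 was at 37.4, 45.7 and 39.1 CPM, each above the highest WT library, with a log2 fold change of 0.21 and a 95% interval from -0.01 to 0.43 (edgeR adjusted p = 0.588). It was the only one of the 9 whose libraries did not overlap with the WT, against 14.7% of all genes tested. The intervals of the log2 fold changes were -0.26 to 0.10 for Tgfbr1, -0.20 to 0.09 for Tgfbr2 and -0.46 to 0.33 for Tgfbr3.

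Ing1 KO and the labelled Gadd45a KO were also compared directly. Tgfb2 was higher in Ing1 KO by 0.52 ± 0.09 on the log2 scale (SE, edgeR adjusted p = 0.0042), with 28.1, 30.3 and 28.3 CPM in the labelled Gadd45a KO. Tgfbr2 was lower by a log2 fold change of -0.42 (adjusted p = 0.00189), Tgfbr3 of -0.85 (0.0144) and Tgfbr1 of -0.30 (0.0297, edgeR). Thus 4 of the 9 were called, 1 higher and 3 lower, where 14.1% of all genes tested were called, 6.78% higher and 7.3% lower. The libraries did not overlap for 4 of the 9, against 33.9% of all genes. The Tgfbr1 call remained in 6 of 11 alternatives, with adjusted p from 4.31e-04 to 0.132, and its libraries of both groups overlapped. It remained in 2 of the 6 fits without 1 library. The Tgfbr3 call remained in 10 of 11.

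In the libraries labelled DKO, which lack Ing1 too, the ligand Tgfb1 was at its highest. The mean levels of the 3 receptors were nearer to the WT than in Ing1 KO. The differences from Ing1 KO were called for Tgfbr1 and Tgfbr2 and not for Tgfbr3 (edgeR adjusted p = 0.154). Against the WT 3 of the 9 genes were called, 2 higher and 1 lower, where 25.9% of all genes tested were called, 15.6% higher and 10.3% lower. The members' share was near that background. The count was 1 without WT replicate 1, WT replicate 2 or DKO replicate 2, and 5 without DKO replicate 3 or with DESeq2. The libraries did not overlap for 5 of the 9, against 41.3% of all genes. Tgfb1 was at 59.3, 58.3 and 57.4 CPM, above every library of the other groups. Its log2 fold change against the WT was 0.72 ± 0.10 (SE, edgeR adjusted p = 4.73e-04), a 1.65-fold difference that remained called in all 11 alternatives. Macrophage markers moved with it: all 17 were called higher in the labelled DKO against the WT, with a median log2 fold change of 2.53. Macrophages make Tgfb1, and the part of these cells in the result was not tested. In Ing1 KO, where Tgfb1 was also higher, none of the 17 was called against the WT, with a median log2 fold change of 0.25. Their sums in Ing1 KO replicates 1 to 3 were 417, 361 and 635 CPM, beside Tgfb1 at 41.3, 48.7 and 56.3 CPM. The part of macrophages in the Ing1 KO level of Tgfb1 was not tested either.

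Tgfb2 was at 37.7, 37 and 29.2 CPM in the libraries labelled DKO, with replicate 3 just above the highest WT library. Its log2 fold change against the WT was 0.31 ± 0.09 (SE, edgeR adjusted p = 0.0277). It was no longer called without any 1 of 5 of the 6 libraries: WT replicate 1 (adjusted p = 0.0742), 2 (0.0892) or 3 (0.0536), or DKO replicate 1 (0.125) or 2 (0.109). Without DKO replicate 3 it was called at 0.00306, the lowest of these values. Tgfb3 was at 537, 500 and 371 CPM, the widest spread of the 9 genes in this group by absolute level, and was not called (log2 fold change 0.28, edgeR adjusted p = 0.0953). Without replicate 3, which lay below all 3 WT libraries, its log2 fold change was 0.42 and it was called (adjusted p = 0.0015), and over 11 alternatives the adjusted p ran from 0.0015 to 0.328.

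Tgfbr1 was at 119, 115 and 118 CPM in the labelled DKO and overlapped the WT, with a log2 fold change of 0.05 and a 95% interval from -0.13 to 0.23. Tgfbr2 was at 377, 353 and 364 CPM, below every WT library and above every Ing1 KO library. Its log2 fold change against the WT was -0.22 ± 0.07 (SE, edgeR adjusted p = 0.0238). That call was lost without WT replicate 1 (adjusted p = 0.0682), WT replicate 2 (0.0642) or DKO replicate 2 (0.0746), with a range of 0.00231 to 0.0746 over the alternatives. Tgfbr3 was at 111, 122 and 154 CPM, below every WT library, and its log2 fold change of -0.54 ± 0.18 just missed the threshold (edgeR adjusted p = 0.0509). It was called in 4 of 11 alternatives, with DESeq2 at 0.0197 and without DKO replicate 3 at 0.0257, over a range of 0.0106 to 0.155.

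Smad7 was at 25.9, 23.2 and 23.3 CPM in the labelled DKO and was not called against the WT (log2 fold change 0.27, edgeR adjusted p = 0.0524). Smad3 was at 78.1, 77.4 and 77.4 CPM, and its 95% interval for the log2 fold change ran from -0.10 to 0.06. Across all 4 groups its highest mean was 1.05 times its lowest, the smallest span of the 9 genes. Inhba was at 132, 112 and 128 CPM and overlapped the WT.

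Against the libraries labelled Gadd45a KO, which share the Gadd45a label, the labelled DKO differed in 1 of the 9 genes, where 26.4% of all genes tested were called, 15.8% higher and 10.6% lower. The libraries did not overlap for 3 of the 9, against 45.7% of all genes. That gene was Tgfb1, higher by 0.52 ± 0.10 on the log2 scale (SE, edgeR adjusted p = 0.00291) in a comparison where all 17 macrophage markers were called higher too. Tgfb2 (log2 fold change 0.26, adjusted p = 0.0602), Tgfbr2 (-0.17, 0.0774) and Tgfbr3 (-0.47, 0.0794) were not called by edgeR. Without DKO replicate 3, 4 of the 9 were called. These were Tgfb1, Tgfb2 (adjusted p = 0.00603), Tgfb3 (0.00279) and Tgfbr3 (0.0395).

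The libraries labelled DKO were set against Ing1 KO to show what accompanied the second label where Ing1 was missing from both groups. Both signalling receptors were higher in the labelled DKO, and 2 of the 9 genes were called, where 24.8% of all genes tested were called, 14.9% higher and 9.88% lower. The libraries did not overlap for 5 of the 9, against 39.1% of all genes. Tgfbr1 was higher by 0.43 ± 0.08 on the log2 scale (SE, edgeR adjusted p = 0.00319), a 1.35-fold difference with no overlap that remained called in all 11 alternatives. Tgfbr2 was higher by 0.25 ± 0.07 (SE, edgeR adjusted p = 0.0143). That call was lost with only the 6 libraries of both groups (adjusted p = 0.0728), without Ing1 KO replicate 2 (0.0658) and without DKO replicate 1 (0.0532), over a range of 0.00111 to 0.0728. Tgfbr3 had a log2 fold change of 0.38 with a 95% interval from -0.02 to 0.78, and its libraries overlapped. The ligands Tgfb1 (0.26, edgeR adjusted p = 0.0782) and Tgfb2 (-0.26, 0.0573) were not called. Tgfb2 was called lower in 6 of 11 alternatives, among them RLE scaling (0.046), no filter (0.0353), DESeq2 (0.0314) and the fit without DKO replicate 1 (0.0444), with adjusted p from 0.017 to 0.221. Without Ing1 KO replicate 3, whose Tgfb1 level of 56.3 CPM was the closest to the labelled DKO, Tgfb1 was called (log2 fold change 0.37, adjusted p = 0.00746, in a range of up to 0.202). In that fit Tgfb2 was called too (-0.34, 0.017), so that 4 of the 9 were called, while without Ing1 KO replicate 2 it was 1 of the 9. All 17 macrophage markers were called higher in the labelled DKO here as well, and their part in the receptor levels was not tested.

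The interaction tested whether the difference that goes with the Ing1 label differed between the Gadd45a labels. It is the log2 fold change of the labelled DKO against the WT, less those of both single groups. It was called for 2 of the 9 genes, where 17.8% of all genes tested were called, 10.4% positive and 7.4% negative. For Tgfbr1 it was 0.51 ± 0.12 (SE, edgeR adjusted p = 0.0141), and the call remained in all 16 alternatives. The Ing1 label went with a Tgfbr1 difference of -0.38 beside the WT and of 0.13 beside the labelled Gadd45a KO. The latter was not called (95% interval -0.05 to 0.30, edgeR adjusted p = 0.294). For Tgfbr2 the interaction was 0.31 ± 0.09 (SE, edgeR adjusted p = 0.0392), from a difference of -0.48 beside the WT and -0.17 beside the labelled Gadd45a KO. The value of -0.17 was not called either (edgeR adjusted p = 0.0774). The Tgfbr2 call was lost in 10 of the 12 fits that left out 1 library, with adjusted p from 0.00401 to 0.0856 over all 16 alternatives. It was 0.45 for Tgfbr3 (95% interval -0.11 to 1.00), -0.32 for Tgfb2 (-0.60 to -0.03, edgeR adjusted p = 0.116) and 0.05 for Tgfb1 (-0.26 to 0.36). Leaving out Ing1 KO replicate 3 made the Tgfb2 value a call (-0.39, adjusted p = 0.0443), and leaving out Ing1 KO replicate 1 did so for Tgfbr3 (0.67, 0.0351). The interaction was not called for Tgfb1 in any of 16 alternatives, and its interval leaves room for a difference of either sign.

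**Figure D3:**
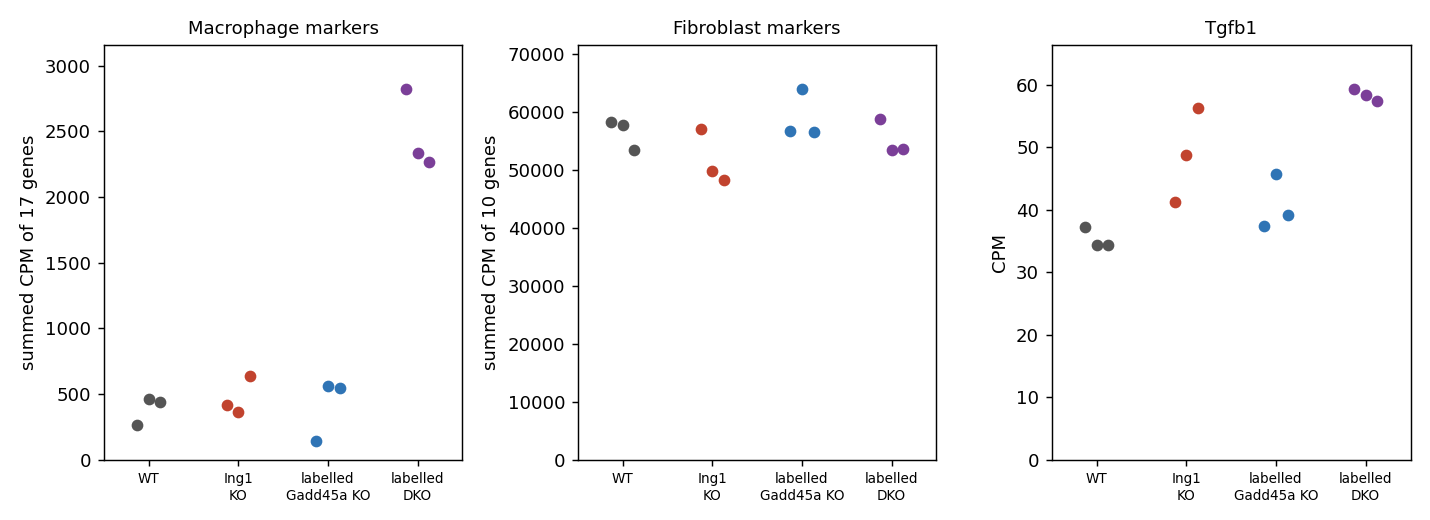
Summed CPM of 17 macrophage markers (left) and 10 fibroblast markers (middle), and CPM of Tgfb1 (right), in each of 12 libraries by group on the x axis. The 3 libraries labelled DKO lie between 2265 and 2821 CPM for the macrophage markers, above all others, and between 57.4 and 59.3 CPM for Tgfb1, while the summed fibroblast markers, most of them collagen RNA, overlap between the groups.

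The groups can be ordered by mean level for each gene. Tgfb1 ran from the WT (35.3 ± 1.66 CPM) through the labelled Gadd45a KO (40.8 ± 4.37) and Ing1 KO (48.8 ± 7.5) to the labelled DKO (58.3 ± 0.95, SD, n = 3 each), and no neighbouring pair in that order was called by edgeR. Tgfb2 ran from the WT (27.8 ± 0.841 CPM) and the labelled Gadd45a KO (28.9 ± 1.23) through the labelled DKO (34.6 ± 4.7) to Ing1 KO (41.4 ± 4.31), again with no neighbouring pair called. Tgfbr1 was lowest in Ing1 KO (87.1 ± 12.5 CPM) and was called lower there than in its neighbour, the labelled Gadd45a KO (108 ± 7.84). The WT (113 ± 3.47) and the labelled DKO (117 ± 2.19) came next, and neither step was called. Tgfbr2 was lowest in Ing1 KO (306 ± 34.9 CPM), then in the labelled DKO (365 ± 11.8), a called step, followed by the labelled Gadd45a KO (410 ± 17.6) and the WT (426 ± 6.28), with neither of these steps called. Tgfbr3 kept the order of Tgfbr2, at 99.4 ± 25.9, 129 ± 22, 179 ± 14 and 187 ± 8.19 CPM, with no neighbouring pair called. For Tgfb3, Smad3, Smad7 and Inhba no pair of neighbours was called.

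Around the 9 genes, 5 lists of pathway genes were read in the same fit. In Ing1 KO against the WT the list of latent complex and activation genes had 10 members called higher and 1 lower of 24 tested, with a median log2 fold change of 0.18 beside 0.00 over all genes tested, of which 12.1% were called higher and 11.4% lower. The count was 4 higher and 1 lower without WT replicate 2, and 6 and 1 without Ing1 KO replicate 2. Ltbp1, which stores latent TGF-beta in the matrix, rose by 0.76 ± 0.06 (SE, edgeR adjusted p = 1.02e-05), from 177 ± 10.3 to 300 ± 11 CPM. Itgb3, a subunit of an integrin that releases the ligand, rose by 0.64 (adjusted p = 1.16e-04), and the protease gene Tll1 rose by 0.72 (0.00249). Aspn, a matrix protein that binds TGF-beta, fell from 1635 ± 142 to 909 ± 191 CPM (log2 fold change -0.85, edgeR adjusted p = 0.00111). In the labelled DKO the same list had 11 higher and 3 lower of 24, with a median of 0.21 beside 0.01 over all genes, of which 15.6% were called higher and 10.3% lower. Ltbp1 (0.69) and Itgb3 (0.46) were called higher there as well, against the same WT libraries, and so was Plat (0.54), a plasminogen activator. Mmp2, a matrix metalloproteinase, was called lower (-0.62, edgeR adjusted p = 0.00126). All 17 macrophage markers were called higher in the same comparison, and their part in the labelled DKO values of the 5 lists was not tested.

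The activin list had 1 member called higher and 2 lower of 9 tested both in Ing1 KO and in the labelled DKO, with medians of -0.08 and 0.19. That is a share of 33.3%, beside 23.5% and 25.9% of all genes. Without Ing1 KO replicate 1 the count in Ing1 KO was 2 higher and 3 lower. In Ing1 KO the activin antagonist gene Fstl3 rose by 0.59 (edgeR adjusted p = 0.00168). Acvr2a, a type II activin receptor, fell from 138 ± 12.4 to 88.4 ± 17.2 CPM (log2 fold change -0.64, adjusted p = 0.00651), and Fstl1, a secreted follistatin relative, fell by 0.31 on the log2 scale (0.00247). In the labelled DKO the log2 fold changes against the WT were 0.61 for Fstl3, -0.57 for Acvr2a and -0.24 for Fstl1, each called.

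Of 10 other receptors and co-receptors, 2 were called higher and 2 lower in Ing1 KO, 40% beside 23.5% of all genes, with a median of 0.01. Without Ing1 KO replicate 2 it was 2 higher and 0 lower. Nrp1, a co-receptor of several growth factors that also binds TGF-beta, rose by 0.39 ± 0.04 (SE, edgeR adjusted p = 1.62e-04). Vasn, which traps TGF-beta, rose by 0.49 (adjusted p = 0.00649). Nrp2 fell by 0.29 (0.00907), a call that was lost without Ing1 KO replicate 2 (0.0528), and over the alternatives only there. Acvr1, a type I receptor for BMPs, was called lower (-0.14, 0.0368), but in only 5 of 11 alternatives, and not without any 1 WT library or without Ing1 KO replicate 2 (adjusted p from 0.0527 to 0.17). The labelled DKO also had 2 higher and 2 lower, beside 25.9% of all genes called, with a median of 0.03. There Bambi, a pseudoreceptor that blocks signalling, rose from 8.65 ± 0.45 to 13 ± 0.417 CPM (log2 fold change 0.59, edgeR adjusted p = 2.56e-04). Eng, the co-receptor endoglin, was called lower (-0.50, adjusted p = 0.0141), though not without DKO replicate 2 (0.0541) or 3 (0.0515).

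Of the Smads and their partners 4 were called higher and 0 lower of 25 tested in Ing1 KO, with a median of 0.06, and this share of 16% is near the 23.5% of all genes. These were the ubiquitin ligase genes Nedd4l (0.44, edgeR adjusted p = 0.00237), Smurf1 (0.31, 0.00714) and Stub1 (0.33, 0.0181) and the repressor gene Tgif1 (0.18, 0.0275). The Stub1 call was lost without WT replicate 2 (adjusted p = 0.0586), WT replicate 3 (0.073) or Ing1 KO replicate 2 (0.0892). The Tgif1 call was lost in 5 of 11 alternatives, with adjusted p from 0.0138 to 0.132. These include leaving out WT replicate 1 or 2 or Ing1 KO replicate 2 or 3. Without Ing1 KO replicate 2, 2 of the 25 were called. In the labelled DKO 4 were higher and 2 lower, a share of 24% beside 25.9% of all genes, with a median of 0.03. Dab2, an adaptor that links the receptors to the Smads, rose from 190 ± 18.3 to 379 ± 33.8 CPM (log2 fold change 1.00, edgeR adjusted p = 6.83e-05). Macrophages express Dab2, all 17 macrophage markers were higher in the same libraries, and their part in its level was not tested. Wwp1, a ubiquitin ligase, rose by 0.30 (adjusted p = 0.00121), and Pmepa1, a feedback inhibitor, fell by 0.26 (0.00158).

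The TGF-beta response list had 19 members called higher and 8 lower of 49 tested in Ing1 KO, a share of 55.1% beside 23.5% of all genes, with a median log2 fold change of 0.27. The list also holds Col1a1, Col1a2 and Col3a1, which serve as fibroblast markers. Among contractile genes, Cnn1 rose from 203 ± 9.75 to 356 ± 36.5 CPM (log2 fold change 0.81, edgeR adjusted p = 1.16e-04) and Tpm1 from 1413 ± 21.4 to 2048 ± 168 CPM (0.54, 1.16e-04). Itga5, a subunit of the fibronectin receptor, rose by 0.70 (adjusted p = 3.51e-04). Postn, which encodes the matrix protein periostin and is among the most abundant of the list, fell from 10793 ± 681 to 7956 ± 498 CPM (log2 fold change -0.44, edgeR adjusted p = 5.87e-04). Chosen after their values were seen, Igfbp3 (log2 fold change -1.66, edgeR adjusted p = 0.00326) and Timp3 (-0.90, 9.67e-04) were lower. Both calls remained in all 11 alternatives. The list thus moved in both directions. Zeb1 was the member not tested, listed at 0 in all 12 libraries. Whether its RNA was absent or its reads were not counted was not tested.

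In the labelled DKO the response list had 15 members called higher and 7 lower of 49, a share of 44.9% beside 25.9% of all genes, with a median of 0.17. Itga5 (0.64), Adam19 (0.47) and Tpm1 (0.36) were called higher against the WT. Cdkn2b, an inhibitor of the cell cycle, fell from 48.5 ± 4.71 to 35.9 ± 1.52 CPM (log2 fold change -0.43, edgeR adjusted p = 9.07e-04). Against Ing1 KO, 4 were called higher and 8 lower, a share of 24.5% that is at the background of 24.8% of all genes, with a median of -0.02, and without Ing1 KO replicate 2 it was 2 higher and 2 lower. Without DKO replicate 2 it was 2 higher and 3 lower. Angptl4, a secreted inhibitor of lipoprotein lipase, was higher (69.8 ± 5.51 against 29.3 ± 6.28 CPM, edgeR adjusted p = 0.00188), and Fn1, fibronectin, was lower (7605 ± 956 against 10522 ± 571 CPM, 0.00108). In the labelled Gadd45a KO no member of the 5 lists was called against the WT.

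**Figure D4:**
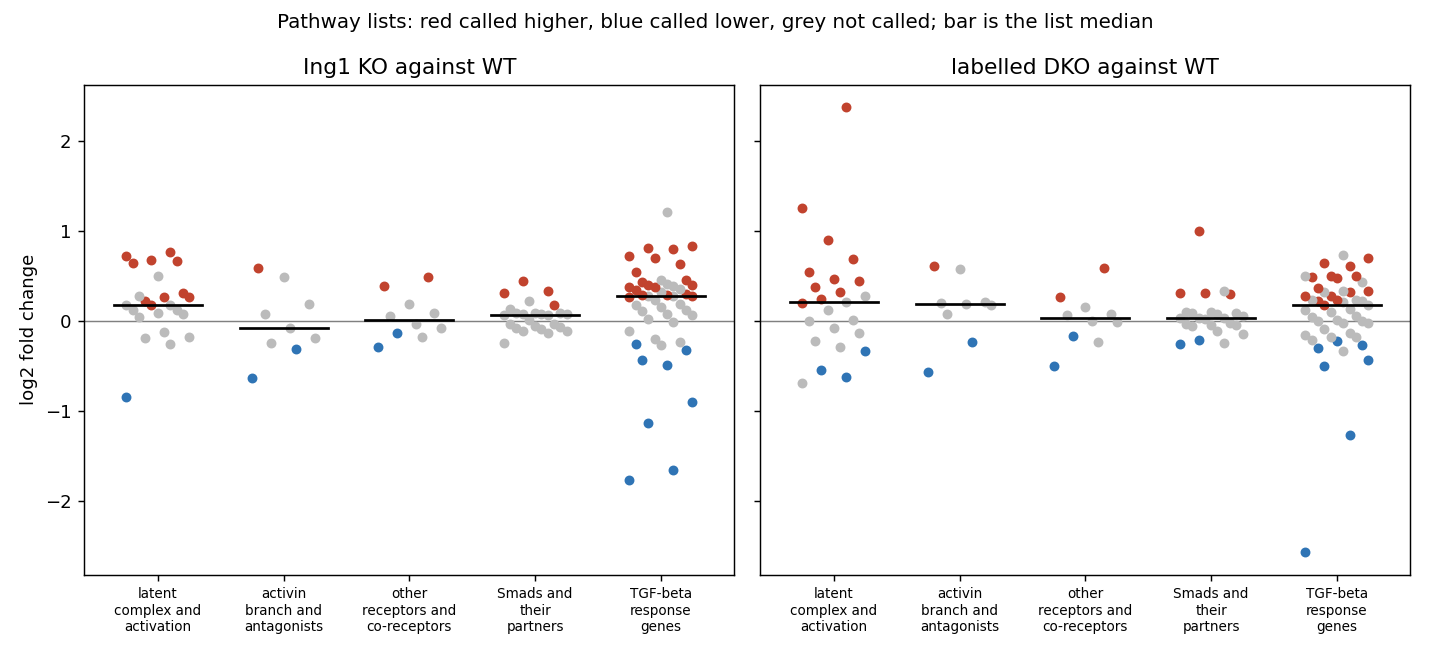
Log2 fold change (y axis) of each tested gene of 5 pathway lists in Ing1 KO (left) and in the libraries labelled DKO (right), both against the WT. Red points were called higher, blue lower and grey not called, and bars mark list medians, which are 0.27 and 0.17 for the response genes.

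The genes most like a member in pattern were found for members whose highest group mean was at least 1.5 times the lowest, which held for Tgfb1 (1.65) and Tgfbr3 (1.89). Likeness is the root mean square difference of centred log2 CPM over the 12 libraries, among 11647 genes whose mean reached 2 CPM. Nearest to Tgfb1 were Scarb1 (0.10), a lipoprotein receptor, and Tagln2 (0.11), an actin-binding protein. Scarb1 had group means of 57 CPM in the WT, 72.4 in Ing1 KO, 63.4 in the labelled Gadd45a KO and 85.3 in the labelled DKO. Nearest to Tgfbr3 were Prr16 (0.09) and Serping1 (0.12), which encodes an inhibitor of complement. Serping1 had means of 124, 65.8, 118 and 78.9 CPM in the same order. The members' own root mean square deviations were 0.29 for Tgfb1 and 0.43 for Tgfbr3.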

How the data were processed

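The authors deposited raw read counts per gene for every library, and these were used. The submitters' processing notes name the genome build mm9 (NCBIM37), the aligners Bowtie2 2.1.0 and TopHat2 2.0.9, the counter HTSeq 0.5.4 and, for comparisons, DESeq. Per the labels' protocols, polyadenylated RNA was sequenced from 1 end over 51 cycles with a kit that keeps no strand. No member overlaps the exons of another annotated gene. The 5 summary lines of each table stayed out of library totals, and held 23.9% to 24.9% of the listed reads.

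Differences were tested with edgeR 4.0.16 (R 4.3.3) in 1 model of 12 libraries and 4 groups, with TMM scaling, filterByExpr, robust quasi-likelihood tests (two-sided) and Benjamini-Hochberg adjustment over 15098 genes. The biological coefficient of variation from the common dispersion of all genes was 8.17%. The SE is the log2 fold change divided by the root of its F value. DESeq2 1.42.0, RLE scaling, no filter, 2-group fits, a replicate block and leaving out each library were alternatives. The scripts were tested on simulated data. Deviations of same-numbered libraries from their group means correlated by 0.34, 0.11 and 0.13 between the WT and the labelled Gadd45a KO. WT replicate 2 correlated by 0.11 with Gadd45a KO replicate 3 as well, and WT replicate 3 by 0.13 with Gadd45a KO replicate 2. Only the libraries numbered 1 thus stood out as a pair, and the labels state no pairing. With the replicate block 1 gene was called between the WT and the labelled Gadd45a KO, and no member, as without it.

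The members and lists were chosen with earlier results of these data known, so their counts are descriptions. Named from each list and comparison were up to 4 called genes with the smallest adjusted p, or 2 abundant ones where none was called. The 2 nearest genes were named for members with a span of at least 1.5. Symbols came from a table given with the data, and exon lengths from GENCODE on GRCm38.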

Additional observations from a re-analysis of the deposited data

Results flagged for a closer look

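The interaction, which tests the difference between differences directly, was called for 2 of the 9 genes, Tgfbr1 (0.51) and Tgfbr2 (0.31). In the 5 pathway lists it was called for 24 of 117 genes tested, 20.5% beside 17.8% of all genes tested. Of these 24, 9 were positive and 15 negative, whereas 10.4% of all genes tested were called positive and 7.4% negative. The rule for naming takes 16 of the 24, listed next, and their split by sign is not that of the 24. Positive values, meaning a higher level in the libraries labelled DKO than the single groups add up to, were found for Nrros (2.12), which anchors latent TGF-beta in macrophages and microglia, Angptl4 (1.46), Dab2 (1.27), Aspn (0.75), Wwp1 (0.54), Nrp2 (0.44), Postn (0.36) and Bambi (0.34). Negative values were found for Eng (-0.64), Fn1 (-0.55), Cdkn2b (-0.54), Vasn (-0.51), Ltbp4 (-0.50), Fbn1 (-0.43), Smurf1 (-0.39) and Tgif1 (-0.29). These are log2 values from edgeR with an adjusted p under 0.05.

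Of the 17 macrophage markers 8 had a called interaction, all positive. Nrros and Dab2 moved with them, and the part of macrophages in their values and in the other called interactions was not tested. Tgfbr1, Aspn, Nrp2, Dab2, Wwp1, Cdkn2b, Fn1 and Angptl4 were called in all 16 alternatives. Bambi was called in 2 of 16, Ltbp4 in 6, Tgfbr2 in 6 and Eng in 7, and Nrros and Vasn each in 8. Smurf1 and Tgif1 were called in 12 of 16, Fbn1 in 13 and Postn in 15, without WT replicate 2 not (0.32, adjusted p = 0.0544).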

How the results depend on the processing

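Of the values for single genes under the alternatives, 1656 kept their direction and their side of the threshold, 132 lost a call, 32 gained one and 20 changed sign, none of them called. Counts of called genes by edgeR, leaving out 1 library at a time, ranged over 1858 to 3548 in Ing1 KO against the WT (3543 with all; 2113 without WT replicate 2, 1858 without Ing1 KO replicate 2), 1 to 13 in the labelled Gadd45a KO against the WT (13 without WT replicate 1), 2754 to 3536 in the labelled DKO against the WT and 2679 to 3404 against the labelled Gadd45a KO. They were 2249 to 3676 in the labelled DKO against Ing1 KO (2249 without Ing1 KO replicate 2), 760 to 2227 in Ing1 KO against the labelled Gadd45a KO (1240 and 1093 without Gadd45a KO replicates 1 and 3, 760 without Ing1 KO replicate 2) and 1300 to 3285 for the interaction (1300 and 1599 without WT replicates 2 and 3, 1386 without Ing1 KO replicate 2, 1607 without DKO replicate 2). These fits hold fewer libraries. With only the 6 libraries of both groups, 0 genes were called in the labelled Gadd45a KO against the WT and 1271 in Ing1 KO against the labelled Gadd45a KO, and DESeq2 called 31 in the former. The cause of these differences was not tested. RLE in place of TMM scaling moved the median of all genes by at most 0.01 (log2). Without the filter the called interactions split into 1092 higher and 1168 lower, against 1569 and 1118.

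No value that changed sign had been called. Without single libraries, Tgfb3 ranged over -0.10 to 0.15 in the labelled DKO against Ing1 KO (-0.01 with RLE, DESeq2 or only these 6 libraries, -0.02 with no filter), 0.00 to 0.09 in the labelled Gadd45a KO against the WT and -0.15 to 0.10 for the interaction. Inhba ranged over -0.07 to 0.16 in the labelled Gadd45a KO against the WT, -0.01 to 0.15 in the labelled DKO against the WT and -0.09 to 0.12 against the labelled Gadd45a KO. Smad3 ranged over -0.03 to 0.00 and -0.01 to 0.04 in these last comparisons and over -0.05 to 0.01 for the interaction, where Tgfb1 ranged over -0.06 to 0.17.

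With the replicate number as a block, 3434, 1, 3824, 3856, 3589, 1921 and 2514 genes were called in Ing1 KO, the labelled Gadd45a KO and the labelled DKO against the WT, in the labelled DKO against the labelled Gadd45a KO and against Ing1 KO, in Ing1 KO against the labelled Gadd45a KO and for the interaction. Tgfb2 was then called in the labelled DKO against the labelled Gadd45a KO (adjusted p = 0.0417) and against Ing1 KO (0.0366). Apart from the WT and the labelled Gadd45a KO, no 2 groups had all same-number pairs over 0.1. The 18 such pairs correlated by -0.18 to 0.34, with 4 over 0.1, and 5 of 12 libraries correlated best with their own number. Depth did not limit the members, which had at least 685 counts in every library.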

Other observations

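Against the libraries labelled Gadd45a KO, the pathway lists in those labelled DKO had called members in both directions, where 26.4% of all genes tested were called and the median log2 fold change of all genes was 0.00. Latent complex and activation genes had 9 higher and 5 lower of 24 (median 0.15). Ltbp1 was higher by 0.59 ± 0.06 on the log2 scale (SE, edgeR adjusted p = 4.24e-05), and Ltbp4, another latent TGF-beta binding protein, was lower, at 70 ± 4.44 against 119 ± 10.3 CPM (-0.77, adjusted p = 5.83e-04). Other receptors and co-receptors had 2 higher and 2 lower of 10, among them Bambi (0.53, edgeR adjusted p = 4.27e-04) and Eng (-0.59, 0.00611). Smads and their partners had 5 higher and 4 lower of 25, with Wwp1 at 0.41 (edgeR adjusted p = 1.93e-04) and the repressor gene Ski at -0.21 (0.00648). Response genes had 10 higher and 7 lower of 49 (median 0.02), and Bgn, the matrix proteoglycan biglycan, was lower at 6805 ± 205 against 8470 ± 73.2 CPM (-0.32, edgeR adjusted p = 7.12e-04). Without DKO replicate 2 the latent list had 6 higher and 3 lower, and without Gadd45a KO replicate 3 the response list had 7 and 4. The Smad list had 4 to 5 called members without replicate 1 or 2 of either group. All 17 macrophage markers were called higher in the same comparison, and their part in these values was not tested.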
